A study of Mus musculus with 77 samples.

Results

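Cells of mouse pancreatic ductal organoids that expressed wild-type (WT) Ngn3 for 8 days were compared with the no-color cells of their own WT series. Ngn3 is the protein of the gene Neurog3. The members were every library whose count column starts with GFP_WT_ or No_Color_WT_ at 8 days, which gave 11 of the 77 libraries of the series. The organoids are three-dimensional cultures of pancreatic ductal cells of C57BL/6 mice, infected with lentiviral vectors in which a tetracycline-inducible promoter drives GFP, a 2A peptide and HA-tagged Ngn3. WT Ngn3 cells were sorted as GFP+ cells. The labels name the other group control WT or no-color WT, without a further definition of the sort gate. Each library was made from a pool of 50 sorted cells. Replicates 1 and 2 came from organoids at passage 2 and replicate 3 from passage 5, in both groups. The labels number the replicates but do not say whether they came from separate animals or infections, so p-values measure the spread between these samples, part of which may be technical. The series also holds 6S-A Ngn3 (all serine-proline sites changed to alanine-proline) with its own no-color cells at 8 days, and WT, 6S-A and GFP-only pools at 2 days, which are used only for comparison. Libraries of the same replicate were summed, so 10 retained libraries gave 3 WT Ngn3 and 3 no-color replicates.

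Neurog3 encodes a basic helix-loop-helix transcription factor that commits pancreatic progenitors to the endocrine lineage. It binds DNA with an E protein partner at short E-box motifs and is normally expressed for a short time. Its known targets include other transcription factors, among them Neurod1, Insm1, Pax4 and Nkx2-2, which in turn direct the genes for hormones, dense-core granules and regulated exocytosis. Ductal cells normally carry keratins, mucins and bicarbonate transporters and express few of these genes. The question the comparison addresses is which genes differ in ductal cells after 8 days of Ngn3.

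Summed reads on annotated genes ranged from 3034680 to 9762561 in the WT Ngn3 replicates and from 2397470 to 17167777 in the no-color replicates. One WT library, of replicate 2, had 849278 gene reads and was left out under the minimum of 1000000. The libraries of replicate 1 stood apart from the others in both groups: reads ambiguous between genes made up 3.89% to 6.28% of their reads, against 10% to 15.8% in the retained libraries of replicates 2 and 3. Epcam, an epithelial surface marker, was at 217 to 380 counts per 1000000 gene reads (CPM) in the former and 1339 to 1827 CPM in the latter. The left-out library had 6.18% ambiguous reads, within the range of replicate 1, and Epcam at 578 CPM, between the ranges. Both groups hold the 2 kinds of library, and the part of this difference in the results was not tested. The single library of no-color replicate 3 stood apart in other ways. Mitochondrial reads made up 17.9% of its gene reads, against 4.89% to 9.14% in the other no-color libraries. It had 36.0% unaligned reads and 15592 genes read, and the part of these in the results was not tested either. Spike-in reads made up 0.126% ± 0.0159 of the WT Ngn3 reads and 0.153% ± 0.0990 of the no-color reads (SD, n = 3 each; exact two-sided permutation test p = 0.9, where the smallest possible is 0.1). As pools of cells were sequenced, more cells of a kind and more RNA per cell cannot be told apart in any value given here.

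Neurog3 (ENSMUSG00000044312, chr10:62133090-62134763, plus strand, mm10) was read in every WT Ngn3 replicate, at 6.69, 43.9 and 13.7 CPM in replicates 1, 2 and 3. In the no-color replicates it was at 0.358, 0.211 and 0 CPM, 8 reads in all. The groups did not overlap (log2 fold change 6.31, SE 1.12, adjusted p = 0.0290; edgeR quasi-likelihood test with Benjamini-Hochberg adjustment over 19696 genes). The WT cells were sorted for GFP from the vector that also carries Ngn3, so a higher level was fixed by the design. The test is thus a check of the labels, and Neurog3 is also counted among the higher genes below. The level was highest in replicate 2 and lowest in replicate 1. Reads of the vector and of the chromosomal gene cannot be told apart in these counts, and exons of Neurog3 overlap those of Fam241b. The call was lost with most replicates left out: the adjusted p was 0.176 without WT replicate 2, and 0.169, 0.0658 and 0.129 without no-color replicates 1, 2 and 3, with the log2 fold change between 5.27 and 6.86. For Neurog3, the log2 fold change was 5.27 without WT replicate 2.

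Of the genes tested, 49 passed an adjusted p of 0.05 (0.249%). Of these, 37 were higher with WT Ngn3 (0.188%) and 12 were lower (0.0609%). All 49 had CPM ranges that did not overlap between the groups, a state that 12.9% of all genes tested showed, 7.08% on the higher side and 5.78% on the lower. The median log2 fold change over all genes tested was 0.013. The common biological coefficient of variation was 0.634; 2200 genes had an unadjusted p under 0.05 (11.2%). Exons of 6 higher genes (Neurog3, Neurod1, Aif1l, Lox, Mast4 and Rnase4) and 2 lower genes (Kcne3 and Tmem45b) overlap another annotated gene, so their counts are less certain. Every one of the 49 kept its direction when any of the 6 replicates was left out. Aif1l, Angptl4, Msln and Nptx1 passed the threshold in all 6 of those fits. Adamts2, Insm1, Nxph1, Tff3 and Pglyrp1 passed in 5, and Kank2, Lox, Nptx2, Rnase4 and Slc2a5 in none. Kank2, Rnase4 and the other 5 higher genes outside the naming rule (Abcg1, Lzts1, Pqlc3, Trim62 and Zfp867) were picked out after their values were seen, with log2 fold changes from 2.34 to 5.89.

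**Figure D1:**
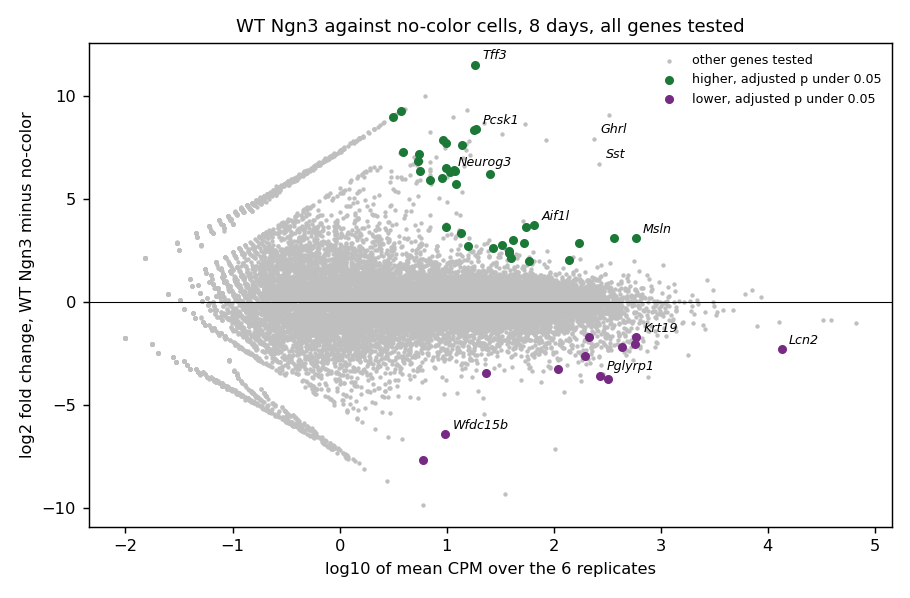
Log2 fold change of WT Ngn3 over no-color cells at 8 days (vertical axis) against the log10 of the mean CPM over the 6 replicates (horizontal axis), 1 point per gene with a mean above 0. The 37 higher genes (green) spread over log2 fold changes of 1.95 to 11.5 and the 12 lower genes (purple) over −7.66 to −1.71. Sst and Ghrl lie high among the genes not called (grey), with nearly all their reads in 1 WT replicate.

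Among 32 islet lineage transcription factors, 25 were tested, 4 were called higher and none lower (0.188% and 0.0609% of all genes tested). Of the 25, 11 did not overlap on the higher side and 1 on the lower (7.08% and 5.78% of all genes), with a median log2 fold change of 5.70 (4.54 with genes at 0 in the no-color cells set to their bound) against 0.013 for all genes. Insm1, a zinc-finger repressor needed for endocrine differentiation, rose to a like level in all replicates. It was at 18.5, 21.7 and 13.8 CPM with WT Ngn3 and 0.299, 0.316 and 0 CPM in the no-color cells (log2 fold change 5.99, SE 0.83, adjusted p = 0.00458). Neurod1, the helix-loop-helix factor that acts after Neurog3, was at 37.0, 20.4 and 0.759 CPM against 0.239, 0.211 and 0 (log2 fold change 6.50, SE 1.26, adjusted p = 0.0449). For Neurod1, the log2 fold change was 5.54 without WT replicate 1. Its level in WT replicate 3 was close above the no-color range, while the other WT replicates were far above it.

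St18, a zinc-finger factor of the Myt1 family, was at 41.2, 11.3 and 2.47 CPM with WT Ngn3 and 0.119, 0 and 0 CPM without, 2 reads in all. The ratio of its pooled CPM was 362 (95% counting interval 99.6 to 2993; adjusted p = 0.0209). For St18, the ratio was 82.0 without WT replicate 1, at least 97.1 without no-color replicate 1 and 239 without no-color replicate 2. Rfx6, a winged-helix factor of islet and enteroendocrine cells, was at 47.4, 4.57 and 5.88 CPM against 0, 0.105 and 0.554. Its ratio was 408 (95% counting interval 112 to 3377; adjusted p = 0.0378). For Rfx6, the ratio was 75.4 without WT replicate 1, 164 without no-color replicate 1 and 763 without no-color replicate 3. All such intervals and bounds cover counting error only, because PCR copies were not told apart from separate molecules. Insm1 missed the threshold only without no-color replicate 1 (adjusted p = 0.0637). St18 and Rfx6 passed in 2 of the 6 fits, without WT replicate 2 or 3, and Neurod1 in 1, without WT replicate 3, with adjusted p of up to 0.178, 0.194 and 0.202.

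The other 21 tested factors did not pass in the edgeR fit, though Nkx2-2 and Pax6 passed under some settings of the closing section. Nkx2-2, a homeodomain factor of most islet cell types, was at 4.88, 13.4 and 4.55 CPM against 0.0597, 0.211 and 0 (adjusted p = 0.0544), without overlap. Atoh8, a helix-loop-helix gene, was at 3.16, 3.35 and 2.28 CPM and had no read in the no-color cells (adjusted p = 0.149). Cbfa2t3, a corepressor of the ETO family, was at 21.1, 29.6 and 19.5 CPM against 0.179, 1.37 and 8.31 (adjusted p = 0.228). Each of these 3 genes was read in every WT replicate, above the no-color range.

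Isl1, which marks differentiated islet cells, was at 71.8, 0 and 0 CPM in WT replicates 1, 2 and 3 and at 0.597, 0 and 1.11 in the no-color replicates. Without WT replicate 1 its log2 fold change turned from 5.79 to −5.15, with adjusted p = 0.385 and 0.662. The remaining WT libraries had no read, so that the size of −5.15 depends on the prior count. Pax6 was at 32.0, 9.45 and 0.569 CPM and Myt1 at 15.1, 4.88 and 0 CPM. Pax4 was at 7.05, 0.610 and 0 CPM. All of these were highest in WT replicate 1 and at or near 0 in replicate 3. Pdx1 (6.41, 7.01 and 5.12 against 13.7, 11.0 and 9.42 CPM) and Hhex (71.2, 112 and 204 against 168, 316 and 189), which ductal cells also express, did not pass (adjusted p = 0.592 and 0.496). Mafa, Mnx1, Irx1, Insm2, Lmx1a, Neurod2 and Pou3f4 were not tested, since too few libraries held a read.

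**Figure D2:**
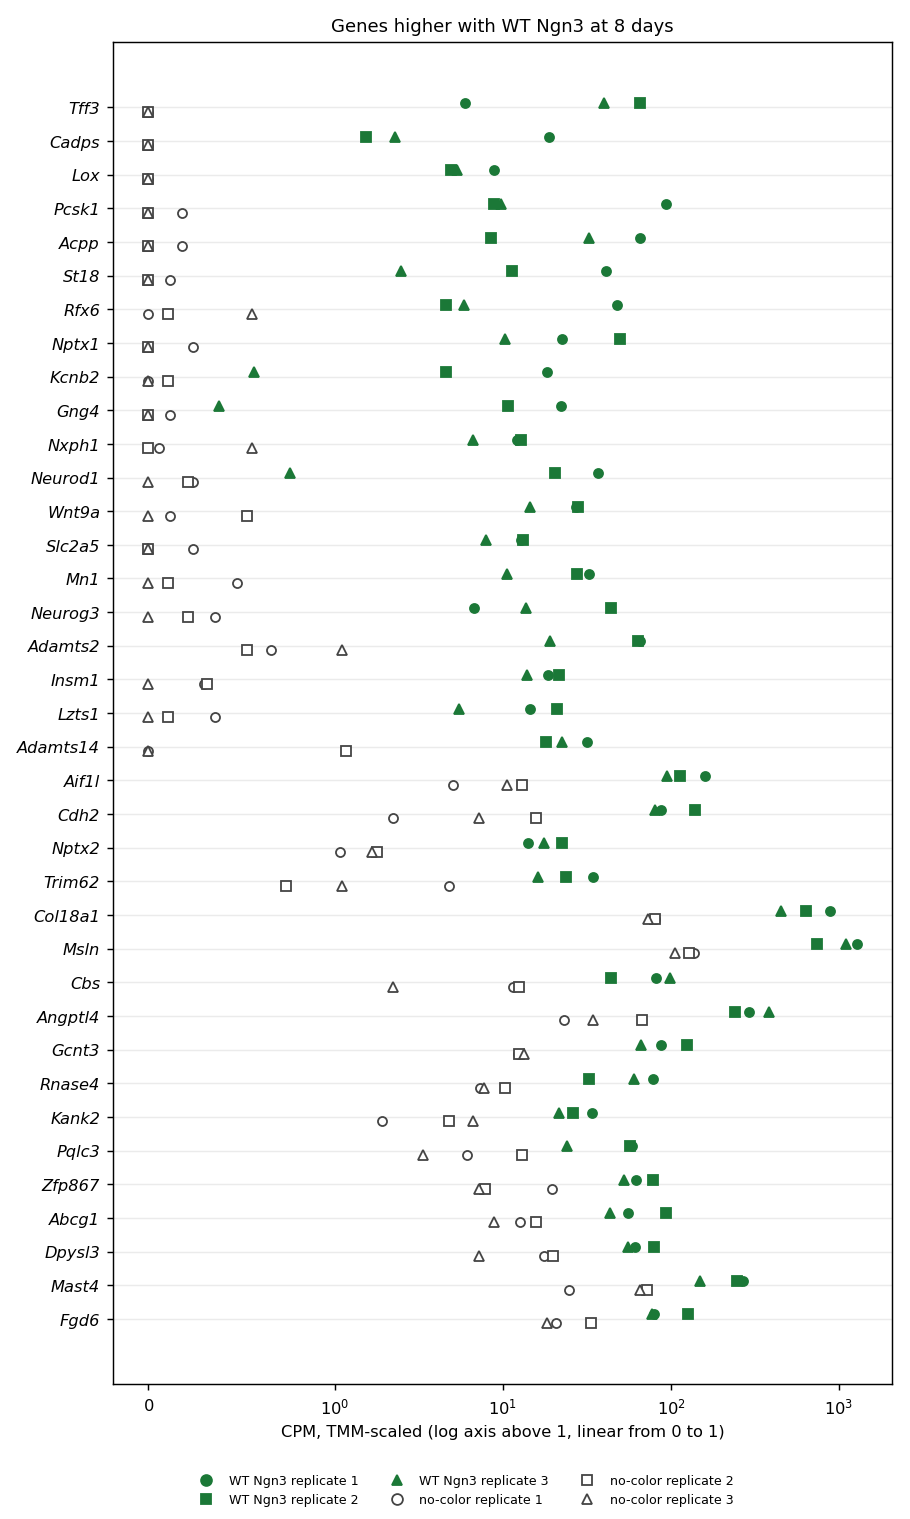
CPM of each of the 37 genes higher with WT Ngn3 (rows, ordered by log2 fold change) in the 3 WT Ngn3 replicates (filled green) and the 3 no-color replicates (open), on an axis that is linear from 0 to 1 CPM and logarithmic above. The genes in the upper rows are at or near 0 in the no-color cells and often span more than 10-fold among the WT replicates, whereas Msln, Col18a1 and Aif1l stand close together in each group.

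Of 16 tested genes of the secretory granule and prohormone processing 1 passed. The median log2 fold change of the 16 was 6.99 (5.85 with genes at 0 in the no-color cells set to their bound), and 7 members did not overlap, all higher, where 0.188% of all genes tested were called higher and 7.08% did not overlap on that side. Pcsk1, the prohormone convertase that makes the first cuts in many prohormones, was at 93.0, 8.84 and 9.67 CPM against 0.179, 0 and 0. Its pooled ratio was 528 (95% counting interval 180.3 to 2565) on 3 no-color reads (adjusted p = 0.0389), and it lost the call with any 1 of the no-color replicates left out (adjusted p of up to 0.192). For Pcsk1, the ratio was 87.4 without WT replicate 1, at least 213 without no-color replicate 1 and 349 without no-color replicate 2. Scg3, a granin that sorts cargo to granules, was at 64.1, 16.2 and 4.55 CPM against 0, 0.422 and 0.554, and Ptprn2, a granule membrane protein, at 17.3, 21.7 and 7.97 against 0, 0 and 1.11 (adjusted p = 0.0608 and 0.0608). Scg3 passed under some settings of the closing section. Cpe, which trims the cut peptides, was at 226, 182 and 149 CPM against 22.2, 108 and 47.6 (adjusted p = 0.268).

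The granins differed widely among the WT replicates. Chga was at 274, 228 and 0.759 CPM and Chgb at 1245, 700.5 and 0.759 CPM in WT replicates 1, 2 and 3, so both were abundant in replicates 1 and 2 and near the no-color level in replicate 3. In the no-color cells Chga was at 1.31, 0.211 and 0 and Chgb at 1.13, 1.16 and 1.66 CPM. Neither passed by edgeR over 3 replicates (adjusted p = 0.344 for Chga and 0.322 for Chgb), whereas the DESeq2 Wald test on the same replicates called both (adjusted p = 0.00510 and 0.000166). Within passage 2 alone, with 2 replicates in each WT-series group, Chgb had an adjusted p of 0.00189 and Chga 0.192, a setting chosen after seeing the data. Pcsk2, the second convertase, was at 186, 11.6 and 0 CPM and Scg2 at 91.5, 0.610 and 0 CPM.

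Hormone genes were carried almost wholly by 1 WT replicate. Of 16 hormones 6 were tested and none passed, with a median log2 fold change of 7.09 (5.90 with bounds). WT replicate 1 was the highest WT replicate for 5 of the 6 and replicate 2 for 1. Sst, somatostatin of delta cells, was at 1560.2, 8.23 and 4.17 CPM with WT Ngn3 and 8.36, 2.42 and 3.88 in the no-color cells. Ghrl, ghrelin, was at 1401, 1.22 and 2.66 CPM against 1.25, 0.738 and 6.09. Pyy was at 320.0, 0 and 0.190 CPM against 0.418, 0.105 and 0, and Iapp, the amylin of beta cells, at 28.3, 0.305 and 0 against 0.478, 0.316 and 0. Replicate 1 was far above every other replicate for all of these 4 genes. In the retained libraries WT replicates 2 and 3 lay within the no-color range, and the left-out library of replicate 2 is given below. Without WT replicate 1 the log2 fold change of Sst fell from 6.69 to 0.21 and that of Ghrl from 7.91 to 0.053. Neither Gcg nor Ins2 had a read in any retained library of the comparison and Ins1 had 1, in a no-color library. Ppy had 19 reads and Cck 37, all in WT Ngn3 libraries, and were too sparse to test.

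The libraries of 1 replicate also differed among themselves. In WT replicate 1 the first library held Sst at 3063 CPM of gene reads and the second at 429.5 CPM. Ghrl was at 1402 and 1781 CPM, Pyy at 645 and 70.5 CPM, and Chgb at 2649.9 and 129 CPM in the same libraries. Sst, Pyy and Chgb were thus many times higher in the first library than in the second, whereas Ghrl was lower in the first. In replicate 2 the retained library had Tph1, the enzyme that starts serotonin synthesis, at 74.1 CPM, on 225 reads. The left-out library of the same replicate had no Tph1 read and held Sst at 436 CPM and Ghrl at 332 CPM, against 8.90 and 1.32 CPM in the retained library. Among the no-color libraries the highest Sst was 15.4 CPM, and the highest Ghrl, in another library, was 4.59 CPM.

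**Figure D3:**
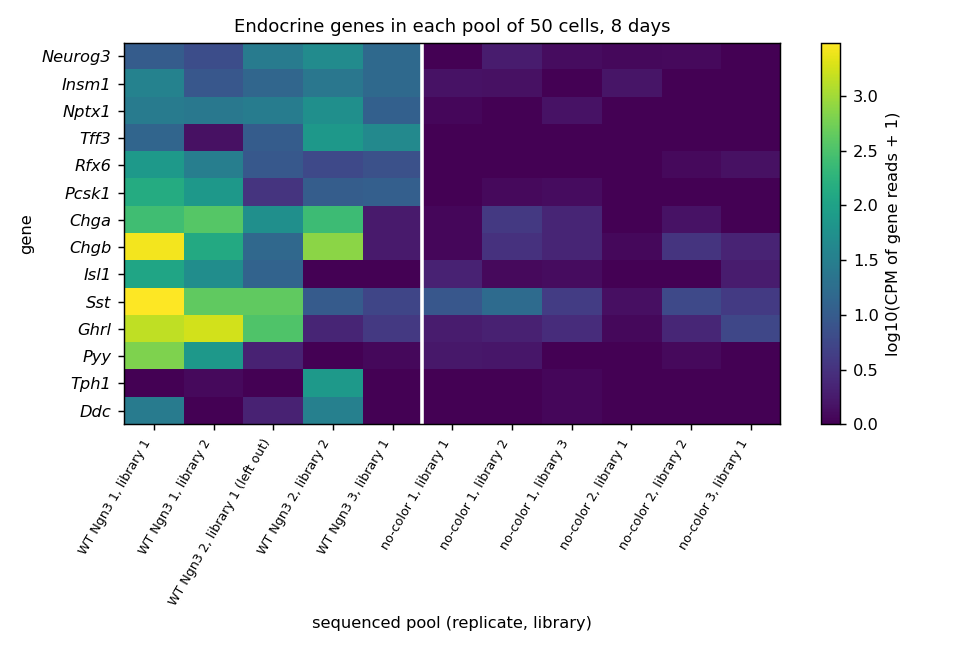
Colour gives log10(CPM of gene reads + 1) of 14 genes (rows) in each sequenced pool of 50 cells (columns), 5 of WT Ngn3 including the left-out library and 6 of no-color cells, split by the white line. Neurog3, Insm1 and Nptx1 are present in all WT pools, whereas Sst, Ghrl and Isl1 are high in 3 pools of replicates 1 and 2, Tph1 in 1 pool of replicate 2, and none of these in replicate 3.

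Some serotonin genes were uneven in another order. Tph1 was at 0.0903, 68.6 and 0 CPM in the WT replicates, Ddc, which completes the synthesis, at 12.2, 29.6 and 0 CPM, and Fev, a factor of serotonergic and endocrine progenitor cells, at 3.25, 3.96 and 0 CPM. The no-color cells held 1 read of Tph1, 1 of Ddc and 0 of Fev. None of the 6 tested genes of the list passed (median log2 fold change 4.72, or 3.21 with bounds; Ddc adjusted p = 0.0968). Tph1, Ddc and Fev were highest in replicate 2 and at 0 in replicate 3. The other tested members were read in both groups: Gch1, which starts the synthesis of the cofactor of Tph1, at 40.7, 73.8 and 135 CPM against 32.3, 118 and 167, and the vesicular monoamine transporters Slc18a1 at 2.53, 15.9 and 1.52 against 6.39, 3.79 and 4.43 and Slc18a2 at 23.1, 20.1 and 18.6 against 5.26, 6.53 and 4.98 (adjusted p = 0.879, 0.909 and 0.205). Of the beta cell genes 11 were tested and none passed (median 3.48). Abcc8, a subunit of the ATP-gated potassium channel, was at 84.6, 13.1 and 0 CPM against 0.358, 0.105 and 0 (adjusted p = 0.315).

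Some genes best known from synapses and neurons rose from next to no reads in the no-color cells. Nptx1, a secreted neuronal pentraxin, was at 22.6, 50.0 and 10.2 CPM with WT Ngn3 and 0.239, 0 and 0 CPM in the no-color cells (log2 fold change 7.60, SE 0.99, adjusted p = 0.00436). For Nptx1, the log2 fold change was 6.88 without WT replicate 2, 10.95 without no-color replicate 1 (the remaining no-color libraries had no read, so that the fitted value depends on the prior count) and 7.01 without no-color replicate 2. Nxph1, a secreted ligand of neurexins, was at 12.1, 12.8 and 6.64 CPM, and 2 reads in the no-color cells gave a pooled ratio of 151 (95% counting interval 41.2 to 1253; adjusted p = 0.0143). It lost the call without no-color replicate 1 (adjusted p = 0.169). For Nxph1, the ratio was 99.7 without no-color replicate 2 and 282 without no-color replicate 3. Nptx2, a close relative of Nptx1, was at 14.0, 22.6 and 17.6 CPM against 1.08, 1.79 and 1.66 (log2 fold change 3.60, SE 0.68, adjusted p = 0.0389), and Dpysl3, a cytoskeletal regulator of growth cones, at 61.2, 79.3 and 55.8 against 17.4, 19.9 and 7.20 (log2 fold change 2.10, SE 0.40, adjusted p = 0.0389). With each replicate left out in turn the adjusted p reached 0.194 for Nptx2 and 0.187 for Dpysl3. These were the 4 called members of the neuronal list, of 24 tested, with none lower and a median log2 fold change of 2.11, where 0.188% of all genes tested were called higher and 0.0609% lower. Of the 24, 10 did not overlap, all higher (7.08% of all genes). Tubb3, the neuronal beta-tubulin, was at 33.5, 22.6 and 9.10 CPM against 2.51, 0.211 and 5.54 without passing (adjusted p = 0.211).

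Cadps, a priming factor of dense-core granule exocytosis, had no read in the no-color cells and 18.9, 1.52 and 2.28 CPM with WT Ngn3. Against a floor of 3 counts over the group it was at least 108-fold higher (adjusted p = 0.0475). It passed in 1 of the 6 fits with a replicate left out, without WT replicate 3 (adjusted p of up to 0.202 in the others). For Cadps, the bound was 18.6 without WT replicate 1, 43.4 without no-color replicate 1 and 71.2 without no-color replicate 2. Cadps was the 1 called member of 20 tested exocytosis genes. All 20 had log2 fold changes above 0, with a median of 1.76, and 6 did not overlap, all higher. Of all 19696 genes tested 9972 were above 0, 0.188% were called higher and 7.08% did not overlap on that side. Cplx2, a complexin, was at 50.9, 17.1 and 8.73 CPM against 1.13, 1.79 and 1.11 and Syt13, a synaptotagmin, at 84.2, 51.8 and 17.5 against 11.8, 6.11 and 13.3 (adjusted p = 0.0810 and 0.166). Of G protein and channel genes, 19 were tested and 2 called higher (0.188% of all genes tested), with a median log2 fold change of 3.16. Of the 19, 8 did not overlap on the higher side and 2 on the lower (7.08% and 5.78% of all genes). Gng4, a G protein gamma subunit, was at 22.1, 10.7 and 0.379 CPM against 0.119, 0 and 0, with a pooled ratio of 201 (95% counting interval 55.3 to 1672; adjusted p = 0.0388). For Gng4, the ratio was 60.6 without WT replicate 1, at least 54.1 without no-color replicate 1 and 133 without no-color replicate 2. Kcnb2, a delayed rectifier potassium channel, was at 18.2, 4.57 and 0.569 CPM, and 1 no-color read gave a ratio of 314 (95% counting interval 55.8 to 12472; adjusted p = 0.0449). For Kcnb2, the ratio was 59.0 without WT replicate 1, 127 without no-color replicate 1 and at least 69.3 without no-color replicate 2. Both genes stood near the no-color level in WT replicate 3 and passed only without it among the 6 fits (adjusted p of up to 0.192 and 0.207 in the others).

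Promoter sequences from RefSeq (GRCm38.p6, 250 bases before to 50 after the start) were found for 22 of the 37 higher genes and searched for E-boxes, the motifs that helix-loop-helix factors bind. A window with CAGATG or its reverse complement CATCTG was found for 3 of the 22 genes (13.6%). It was found for 14.1% of the genes tested that had a window and 19.2% of all genes with a window, tested or not. CAGCTG, which reads the same on both strands, was in a window of 6 of the 22 (27.3%), against 18.2% of the genes tested. Both are forms of CANNTG, which was in 63.6% of the 22 and 68.2% of the genes tested. Of the 8 lower genes with a window, 25% held CAGATG or CATCTG, 25% CAGCTG and 87.5% CANNTG. These counts are descriptions of letters and not of binding. The windows of the 3 genes of the first count are shown 5′ to 3′ on the gene's strand, with the 3 motifs named in capitals.
Gng4, chr13:13783809-13784108, plus strand: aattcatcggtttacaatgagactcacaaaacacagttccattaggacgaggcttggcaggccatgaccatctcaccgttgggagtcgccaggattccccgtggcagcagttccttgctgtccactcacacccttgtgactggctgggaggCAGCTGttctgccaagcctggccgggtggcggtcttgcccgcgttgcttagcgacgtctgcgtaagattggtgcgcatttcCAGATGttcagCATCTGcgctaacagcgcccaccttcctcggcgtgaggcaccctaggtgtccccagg
Adamts2, chr11:50601835-50602134, plus strand: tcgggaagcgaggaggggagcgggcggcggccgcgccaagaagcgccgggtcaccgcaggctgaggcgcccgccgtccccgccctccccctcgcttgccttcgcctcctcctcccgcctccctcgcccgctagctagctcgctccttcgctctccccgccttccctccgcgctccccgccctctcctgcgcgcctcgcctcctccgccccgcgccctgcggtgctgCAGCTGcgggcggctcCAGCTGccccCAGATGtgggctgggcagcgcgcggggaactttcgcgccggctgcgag
Cadps, chr14:12823030-12823329, minus strand: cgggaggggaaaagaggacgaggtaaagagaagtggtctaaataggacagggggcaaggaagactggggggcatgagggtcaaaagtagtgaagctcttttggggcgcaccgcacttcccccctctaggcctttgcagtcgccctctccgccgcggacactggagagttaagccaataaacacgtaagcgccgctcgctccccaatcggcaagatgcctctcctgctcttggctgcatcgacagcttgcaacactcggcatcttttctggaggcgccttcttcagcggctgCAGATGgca
In Gng4 the motifs began at −99, −18 and −7 from the start, in Adamts2 at −24, −8 and 3, and in Cadps at 42.

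Adamts2, Adamts14, Col18a1, Lox and Cdh2, all of the matrix or of cell adhesion, rose. Adamts2 and Adamts14, secreted proteases that trim procollagen, were at 65.2, 64.0 and 19.2 and at 31.7, 18.0 and 22.4 CPM in the WT Ngn3 replicates. In the no-color cells they were at 0.657, 0.527 and 1.11 and at 0, 1.16 and 0 CPM. The change of Adamts2 (log2 fold change 6.18, SE 0.87, adjusted p = 0.00458) lost the call only without no-color replicate 1 (adjusted p = 0.0837), and that of Adamts14 (log2 fold change 5.70, SE 1.10, adjusted p = 0.0422) in 5 of the 6 fits (up to 0.172). For Adamts14, the log2 fold change was 4.85 without no-color replicate 1 and 10.89 without no-color replicate 2 (the remaining no-color libraries had no read, so that the fitted value depends on the prior count). Col18a1, the basement membrane collagen that yields endostatin, was at 878, 634 and 453 CPM against 79.8, 80.3 and 73.1 (log2 fold change 3.07, SE 0.43, adjusted p = 0.00458). It missed the threshold without no-color replicate 1 or 3 (up to 0.0637). These were the 3 called of 25 tested matrix genes, with none lower, 12 not overlapping on the higher side, 1 on the lower and a median log2 fold change of 0.91. Of all genes tested 0.188% were called higher, and 7.08% and 5.78% did not overlap on the higher and lower side. Lamb1, a laminin chain, was at 478, 440.0 and 249 CPM against 70.6, 155 and 134 (adjusted p = 0.0654).

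Lox, which crosslinks collagen and elastin, had no no-color read in the 3 replicates and 8.85, 4.88 and 5.31 CPM with WT Ngn3, at least 67.6-fold higher (adjusted p = 0.0389). For Lox, the bound was 27.2 without no-color replicate 1 and 44.7 without no-color replicate 2. It passed in none of the fits without 1 replicate (adjusted p from 0.0596 to 0.194), and the no-color cells of the 6S-A organoids did hold it, at 0.174, 1.21 and 2.87 CPM. Cdh2, N-cadherin, was at 87.5, 139 and 80.8 CPM against 2.21, 15.7 and 7.20 (log2 fold change 3.60, SE 0.58, adjusted p = 0.0143; up to 0.115 with a replicate left out). For Cdh2, the log2 fold change was 4.67 without no-color replicate 2. Cdh2 was the called member of 15 tested delamination genes, of which all had log2 fold changes above 0 (median 0.91) and 6 did not overlap, all higher. The shares over all genes tested were 0.188% called higher, 9972 of 19696 above 0 and 7.08% without overlap on the higher side. Cdh1, E-cadherin, was at 820.5, 763 and 527 CPM against 490.4, 564 and 386 (log2 fold change 0.55, adjusted p = 0.535). Zeb1 (28.4, 23.2 and 14.99 against 0.777, 9.06 and 0.554 CPM) and Snai2 (14.3, 6.71 and 11.2 against 0.836, 2.21 and 6.09), repressors of epithelial genes, did not overlap and did not pass (adjusted p = 0.318 and 0.382).

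Msln, Aif1l and Angptl4 stood outside the endocrine lists and passed whichever replicate was left out. Msln, the surface glycoprotein mesothelin, was at 1279, 736 and 1106 CPM with WT Ngn3 and 138, 129 and 105 in the no-color cells, 8.38-fold higher (log2 fold change 3.07, SE 0.38, adjusted p = 0.00364). Aif1l, an actin-binding protein, was at 159, 113 and 94.7 CPM against 5.08, 13.1 and 10.5 (log2 fold change 3.70, SE 0.40, adjusted p = 0.00112). Angptl4, a secreted inhibitor of lipoprotein lipase, was at 291, 239.7 and 382 CPM against 23.1, 67.1 and 34.3 (log2 fold change 2.87, SE 0.38, adjusted p = 0.00436). The highest adjusted p with a replicate left out was 0.0169 for Aif1l, 0.0349 for Angptl4 and 0.0349 for Msln. Cbs, which makes cystathionine from homocysteine, was at 81.4, 44.2 and 98.6 CPM against 11.5, 12.5 and 2.22 (log2 fold change 3.01, SE 0.49, adjusted p = 0.0143). Gcnt3, a mucin-type glycosyltransferase, was at 87.3, 124 and 66.2 against 12.4, 12.5 and 13.3 (log2 fold change 2.86, SE 0.44, adjusted p = 0.0124). Cbs passed in 4 and Gcnt3 in 3 of the 6 fits, with adjusted p of up to 0.0837 and 0.127. Mast4, a kinase, was at 269, 247 and 149 CPM against 24.8, 71.9 and 65.4, and Fgd6, a guanine nucleotide exchange factor, at 79.0, 127 and 77.6 against 20.5, 33.6 and 18.3 (log2 fold changes 2.04 and 1.95, adjusted p = 0.0449 and 0.0360). Each of these passed in 2 of the 6 fits, with adjusted p of up to 0.192 and 0.185.

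Tff3, a trefoil peptide of mucous epithelia, appeared in every WT replicate and in no no-color replicate. It was at 5.96, 65.6 and 39.8 CPM with WT Ngn3 and had no read in the no-color cells, at least 234-fold higher (adjusted p = 0.00458; 0.0637 without no-color replicate 1). For Tff3, the bound was 464 without WT replicate 1, 94.2 without no-color replicate 1 and 155 without no-color replicate 2. It was the only called member of 11 tested trefoil and mucous genes, whose median log2 fold change was −1.997, where 0.188% of all genes were called higher and 0.0609% lower. Of the 11, 1 did not overlap on the higher side and 2 on the lower (7.08% and 5.78% of all genes). Muc20, a membrane mucin, was at 5.69, 13.7 and 17.8 CPM against 53.1, 25.4 and 48.7 and did not pass (adjusted p = 0.437). Acpp, prostatic acid phosphatase, was at 65.7, 8.54 and 32.4 CPM, and 3 no-color reads gave a pooled ratio of 441 (95% counting interval 150.4 to 2143; adjusted p = 0.0389). For Acpp, the ratio was 217 without WT replicate 1, at least 178 without no-color replicate 1 and 292 without no-color replicate 2. Slc2a5, the fructose transporter, was at 12.8, 13.1 and 7.97 CPM against 0.239, 0 and 0 (log2 fold change 6.36, SE 1.23, adjusted p = 0.0422), and Mn1, a transcriptional coregulator, at 32.4, 27.4 and 10.6 against 0.478, 0.105 and 0 (log2 fold change 6.34, SE 1.15, adjusted p = 0.0360). For Slc2a5, the log2 fold change was 9.67 without no-color replicate 1 (the remaining no-color libraries had no read, so that the fitted value depends on the prior count) and 5.76 without no-color replicate 2. For Mn1, the log2 fold change was 7.84 without no-color replicate 1. Acpp and Mn1 each passed in 1 of the 6 fits and Slc2a5 in none, with adjusted p of up to 0.194, 0.156 and 0.178.

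Among the signalling lists 1 gene was called (0.188% of all genes tested were called higher). Wnt9a, a Wnt ligand, was at 27.3, 28.1 and 14.4 CPM with WT Ngn3 and 0.119, 0.527 and 0 in the no-color cells (log2 fold change 6.40, SE 1.13, adjusted p = 0.0290). For Wnt9a, the log2 fold change was 5.78 without no-color replicate 1 and 7.65 without no-color replicate 2. It passed in 2 of the 6 fits, without WT replicate 3 or no-color replicate 2, with adjusted p of up to 0.192. The other 23 tested Wnt pathway genes did not pass (median over the list 0.039). The feedback genes Rnf43 (46.5, 32.6 and 32.2 against 91.0, 72.7 and 61.5 CPM) and Znrf3 (86.2, 59.8 and 78.9 against 148, 89.0 and 98.6) did not overlap, on the lower side (adjusted p = 0.395 and 0.513). Of 9 tested Notch ligand and fringe genes none passed (median 0.42), and 3 did not overlap, all higher (7.08% of all genes). Dll4, a ligand that Notch-sending cells display, was at 6.41, 9.15 and 16.7 CPM against 0.0597, 0 and 0.554 (adjusted p = 0.120), whereas Dll1 was at 22.2, 25.3 and 7.398 against 60.8, 17.7 and 9.42 and Jag1 at 88.2, 100.02 and 92.6 against 76.3, 87.9 and 70.9 (adjusted p = 0.755 and 0.828). Of 12 tested receptors and effectors none passed (median 0.031). The effector Hes1 was at 24.8, 138 and 54.2 CPM against 30.1, 257 and 1072 (adjusted p = 0.540), with its lowest level in replicate 1 of both groups.

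None of the 7 tested E protein and Id genes passed (median log2 fold change 0.55), and 5 were above 0 (9972 of 19696 over all genes tested). Of the 7, 1 did not overlap on the higher side and 1 on the lower (7.08% and 5.78% of all genes). Id2, which binds E proteins and keeps them from DNA, was at 280.4, 274 and 372 CPM against 499.9, 538 and 794, without overlap, and Id1 at 182, 141 and 131 against 252, 173 and 463 (adjusted p = 0.349 and 0.389). No gene passed among 19 tested TGF-beta and BMP pathway genes (median log2 fold change 0.42) or 13 YAP targets (median 0.56). Of these, 6 and 4 did not overlap on the higher side, and 0 and 1 on the lower (7.08% and 5.78% of all genes). The pseudoreceptor Bambi was at 23.7, 26.8 and 46.7 CPM against 5.61, 3.58 and 11.1 and the receptor kinase Axl at 202, 168 and 67.5 against 14.2, 52.8 and 12.2, neither overlapping (adjusted p = 0.117 and 0.109).

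The 12 lower genes included Lcn2, Pglyrp1, Cd14, Chil1 and Wfdc15b. Lcn2, the siderophore-binding lipocalin, was at 4649, 2768 and 6101 CPM with WT Ngn3 and 25460.3, 9534 and 32376 CPM in the no-color cells, 4.98-fold lower (log2 fold change −2.32, SE 0.44, adjusted p = 0.0412). Pglyrp1, a peptidoglycan recognition protein, was at 42.5, 30.8 and 50.6 CPM against 574, 233 and 688 (log2 fold change −3.59, SE 0.52, adjusted p = 0.00638), and only without WT replicate 2 did it miss the threshold (adjusted p = 0.0647). Cd14, the lipopolysaccharide coreceptor, was at 230.1, 155 and 274 CPM against 1424, 899 and 459.7 (log2 fold change −2.08, SE 0.42, adjusted p = 0.0475). It also stood in the list of immune cell markers, whose other members were sparse. Chil1, a chitinase-like secreted protein, was at 27.1, 5.49 and 29.0 CPM against 263, 100.1 and 234 (log2 fold change −3.26, SE 0.53, adjusted p = 0.0153). Wfdc15b, of the whey acidic protein family, was at 0.452, 0 and 0 CPM against 14.3, 3.27 and 40.4 (log2 fold change −6.44, SE 1.28, adjusted p = 0.0456). For Wfdc15b, the log2 fold change was −10.48 without WT replicate 1 (the remaining WT libraries had no read, so that the fitted value depends on the prior count) and −5.45 without no-color replicate 3. Every WT replicate lay below every no-color replicate for each of these genes. Chil1 passed in 3 of the 6 fits with a replicate left out, and Lcn2, Cd14 and Wfdc15b in 1 each, with adjusted p of up to 0.0837, 0.264, 0.295 and 0.223.

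Pdzk1ip1, a small membrane protein that interacts with PDZK1, was at 53.1, 24.1 and 54.4 CPM against 347, 161 and 1274 (log2 fold change −3.75, SE 0.71, adjusted p = 0.0475). For Pdzk1ip1, the log2 fold change was −2.59 without no-color replicate 3. Kcne3, a potassium channel subunit of secretory epithelia, was at 56.0, 34.8 and 71.1 CPM against 625, 201 and 186 (log2 fold change −2.64, SE 0.52, adjusted p = 0.0449). For Kcne3, the log2 fold change was −1.91 without no-color replicate 1. Gsta4, a glutathione transferase for lipid aldehydes, was at 104, 142 and 219 against 909, 463 and 789.8 (log2 fold change −2.21, SE 0.41, adjusted p = 0.0378). Tmem45b was at 4.43, 3.96 and 3.22 CPM against 73.2, 32.6 and 21.0, Parm1 at 104, 99.1 and 94.7 against 339, 222 and 411, and the transcript 1700049E15Rik at 0.0903, 0 and 0 against 21.5, 3.58 and 11.1. The log2 fold changes of Tmem45b and Parm1 were −3.45 and −1.71, and the pooled ratio of 1700049E15Rik, on 1 WT read, was 0.00345 (95% counting interval 8.72e-05 to 0.0193; adjusted p = 0.0288, 0.0449 and 0.0389). For Tmem45b, the log2 fold change was −2.86 without no-color replicate 1. The ratio of 1700049E15Rik was 0.0107 without no-color replicate 1, and without WT replicate 1, with no WT read left, it was at most 0.0238 at a floor of 3 counts. These 6 genes passed in 1 or 2 of the 6 fits, with adjusted p of up to 0.277.

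**Figure D4:**
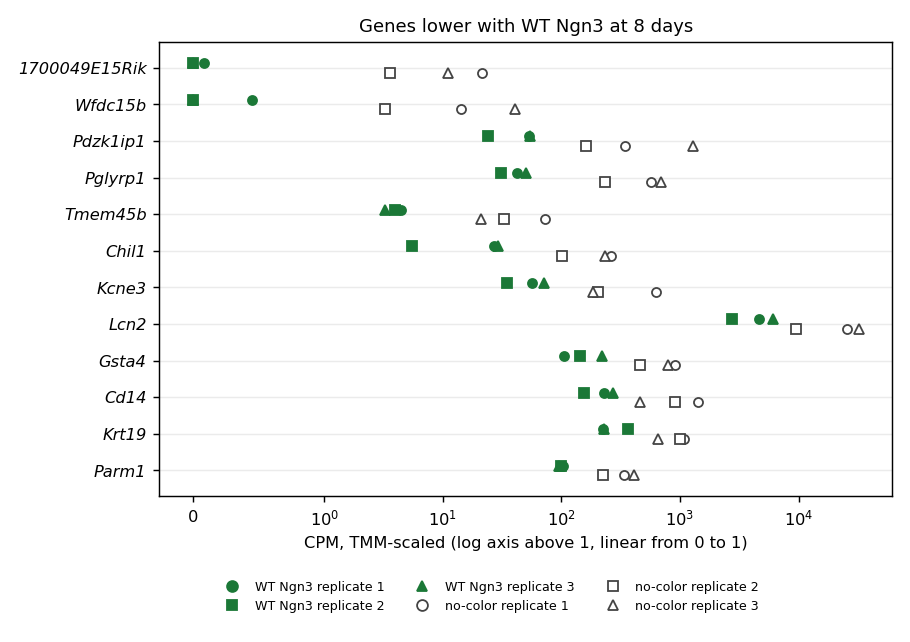
CPM of each of the 12 genes lower with WT Ngn3 (rows, ordered by log2 fold change) in the 3 WT Ngn3 replicates (filled green) and the 3 no-color replicates (open), on an axis that is linear from 0 to 1 CPM and logarithmic above. In every row the WT points lie left of the no-color points, and WT replicate 2 is the lowest WT point, or tied for it at 0, for 8 of the 12 genes.

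Krt19, the keratin that marks ductal cells, fell to 226, 363 and 229.9 CPM with WT Ngn3 from 1071, 998 and 652 CPM in the no-color cells (log2 fold change −1.73, SE 0.33, adjusted p = 0.0389). The call held in 1 of the 6 fits with a replicate left out, without no-color replicate 3 (adjusted p of up to 0.251 in the others). It was the 1 called gene of 22 ductal keratins and surface markers (0.0609% of all genes were called lower), of which 8 did not overlap on the lower side and 1 on the higher side, against 5.78% and 7.08% of all genes tested (median log2 fold change −0.63). Krt7 was at 1124, 1180.1 and 935 CPM against 1335, 1114 and 835 (log2 fold change −0.021). Cldn7, a claudin, was at 243, 287 and 279 CPM against 748, 497 and 809 and Muc1, a membrane mucin, at 304, 324 and 299 against 1148, 551 and 542 (adjusted p = 0.104 and 0.200). Cldn7 passed under some settings of the closing section. Prom1 was at 1163, 1614 and 1523 CPM against 809, 1003 and 849.7, higher in each WT replicate without passing (adjusted p = 0.457). As a check of the labelled tissue, Krt7, Krt18, Krt19, Epcam and Sox9 were read in every replicate of both groups.

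No gene passed among 13 tested duct transport genes or 21 ductal and progenitor transcription factors (medians −0.58 and −0.21). Car2, a carbonic anhydrase, was at 109, 29.6 and 193 CPM against 747, 381 and 417 and Kcnn4, a calcium-gated potassium channel, at 26.0, 67.1 and 53.1 against 176, 179.6 and 187 (adjusted p = 0.141 and 0.132). Sox9 was at 68.9, 245 and 263 CPM against 138, 138 and 251, with overlap (adjusted p = 0.959). Bicc1, an RNA-binding protein of ductal epithelia, was at 169, 163 and 171 CPM against 343, 416 and 500.2 (adjusted p = 0.176).

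None of 44 cell cycle genes passed. Their median log2 fold change was −0.73, and 5 of the 44 were above 0 (9972 of 19696 over all genes tested). Of the 44, 7 did not overlap, all lower (5.78% of all genes tested). Top2a, the topoisomerase of dividing cells, was at 27.9, 27.4 and 20.9 CPM against 102, 122 and 48.7 (log2 fold change −1.85, SE 1.07, adjusted p = 0.550). Ccna2, cyclin A2, was at 3.07, 3.05 and 3.22 against 15.9, 30.1 and 7.20 and Mki67 at 12.1, 15.2 and 11.6 against 50.7, 76.8 and 13.8 (adjusted p = 0.374 and 0.592). No-color replicate 3, of passage 5, was the lowest no-color replicate for all 3 of these. Ccnd1, cyclin D1, was at 461, 477 and 384 CPM against 407, 500.0 and 353. None of 7 Cdk inhibitor genes passed, and Cdkn1a was at 886, 641 and 792 against 425, 436 and 1918 CPM (adjusted p = 0.894).

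Markers of other cell types were sparse in both groups. Of 22 acinar genes 8 were tested, with a summed level of 1.52 to 11.5 CPM in the WT replicates and 12.6 to 23.5 CPM in the no-color replicates, and Ptf1a, Cpa1 and Prss2 had no read. Of 14 mesenchymal genes 4 were tested, at 28.5 to 77.5 CPM summed against 8.31 to 121, with Vim giving most reads, and Pdgfra, Pdgfrb and Dcn had no read. Of 9 endothelial genes 4 were tested, at 1.83 to 7.02 CPM against 5.54 to 8.66, and Cdh5 had no read. Of 11 immune genes 6 were tested, at 163 to 281 CPM against 465 to 1445, of which Cd14 made up the most; Ptprc had 10 reads with WT Ngn3 and 1 without. Of 8 glial and neural crest genes 5 were tested, at 0.759 to 10.5 CPM against 2.74 to 8.31. None of 19 tested interferon response genes, 20 immediate early genes, 22 stress and p53 target genes or 13 mitochondrially encoded genes passed, with median log2 fold changes of 0.21, −0.34, 0.42 and −0.44. In the same order, 3, 0, 6 and 1 did not overlap on the higher side (7.08% of all genes). On the lower side the counts were 0, 1, 0 and 0 (5.78% of all genes). Mdm2 and Ccng1, targets of p53, were at 388, 361 and 419 and at 579, 675 and 643 CPM with WT Ngn3 and at 81.1, 245 and 165 and at 157, 457 and 157 without (adjusted p = 0.297 and 0.261).

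The 37 higher genes were not alike in how the WT replicates ranked. WT replicate 1 was the highest for 20 of them, replicate 2 for 15 and replicate 3 for 2, and replicate 3 was the lowest for 24. The 3 WT values lay within 3-fold of each other for 23 genes and spanned over 10-fold for 8. For the 12 lower genes they lay within 3-fold for 9, and for Wfdc15b and 1700049E15Rik the span has no value because WT replicates were at 0. Neurog3 had another order, with its lowest level in WT replicate 1, where Sst, Ghrl and Isl1 were highest. On the first principal component over all 4 groups of 8 days (36.7% of the variance) the WT replicates lay at −50.2, −32.7 and −1.19 and the no-color replicates at 38.4, 33.7 and 42.8, so WT replicate 3 lay nearest to the no-color cells. It was the only WT replicate of passage 5 at 8 days, so passage and replicate cannot be told apart.

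The 49 genes were then read in the other comparisons of the series. At 8 days 6S-A Ngn3 against its own no-color cells gave 115 called genes (0.584%), of which 82 were higher (0.416%) and 33 lower (0.168%). All 37 higher genes had a log2 fold change above 0 with 6S-A Ngn3 and 29 were called higher there. All 12 lower genes were below 0, and 6 were called lower. The median over the 37 was 5.89 with WT and 3.67 with 6S-A Ngn3, and over the 12 it was −2.95 and −2.30. The WT values are those the genes were chosen on, so their size beside the 6S-A values is a description. The difference between the changes was tested directly and no gene passed (0%; 647 had an unadjusted p under 0.05, and DESeq2 also gave 0). Among the 49, the unadjusted p of that test was below 0.05 for Wnt9a, Lox, Zfp867 and Mn1 of the higher genes and Wfdc15b, Pglyrp1 and 1700049E15Rik of the lower.

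Levels with 6S-A Ngn3 are given for some of the called genes and for Sst, which was not called with WT Ngn3. Msln was at 1358, 639 and 1156 CPM in the 6S-A replicates against 217, 109 and 186 in their no-color cells, and Aif1l at 147, 116 and 133 against 9.44, 11.4 and 10.3. Insm1 was at 17.2, 51.1 and 24.9 CPM against 0.0579, 0.258 and 0 (difference in log2 fold change, WT minus 6S-A, −2.01, SE 1.12, unadjusted p = 0.0905). Neurog3 was at 9.50, 12.2 and 14.3 CPM against 0.348, 0.947 and 0 (difference 1.59, SE 1.34, unadjusted p = 0.253). Sst with 6S-A Ngn3 was at 1529, 1440.0 and 2.29 CPM, so that it was high in replicates 1 and 2 and near the no-color level in replicate 3, which was also of passage 5. Neurod1 was at 54.1, 24.7 and 14.9 CPM with 6S-A Ngn3.

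At 2 days WT Ngn3 was compared with GFP-only cells, another control than at 8 days, and 437 of 19589 genes were called (2.23%), 354 higher (1.81%) and 83 lower (0.424%). All 49 genes had the same direction there, and 34 of the 37 higher and 5 of the 12 lower genes were called. Lox, Pqlc3 and Zfp867 were the higher genes not called at 2 days. The median log2 fold change was 3.27 over the 37 and −1.82 over the 12. Neurog3 was at 205, 89.5 and 105 CPM at 2 days, above each of the 3 values at 8 days. Its log2 fold change was 11.09 at 2 days (joint fit) against 6.31 at 8 (fit of 8 days). Each GFP-only library held 0 or 1 Neurog3 read, so the size of 11.09 rests on a control near 0. Neurod1 was at 45.3, 22.2 and 136 and Insm1 at 63.4, 84.6 and 201 CPM at 2 days. Tff3 was at 229, 140.1 and 249.9 CPM and Msln at 2469.9, 1595 and 1660.2 CPM, with GFP-only cells at 0.254, 0.268 and 0.0922 and 401, 295 and 265. Pcsk1 was at 16.01, 6.59 and 24.9 CPM at 2 days. Tested over both days, no gene had a different change at 8 than at 2 days after adjustment (0%; 1585 at an unadjusted p under 0.05, and 79 by DESeq2). Of the 37 higher genes 10 had an unadjusted p under 0.05 (Neurog3, Insm1, Neurod1 and Nptx2 with the larger change at 2 days, and Lox, Wnt9a, Mn1, Zfp867, Pqlc3 and Angptl4 at 8 days). Of the 12 lower genes 6 did, all with the larger change at 8 days: 1700049E15Rik, Wfdc15b, Pdzk1ip1, Pglyrp1, Tmem45b and Parm1. The 49 genes were chosen on their values at 8 days, which favours a larger change at 8 days. The counts among them are therefore a description. The unadjusted p was 0.00167 for Neurog3, 0.00534 for Insm1 and 0.0252 for Neurod1, and 0.000102 for Lox. The controls of the 2 days differ in kind, and their part in these differences cannot be told apart from time.

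**Figure D5:**
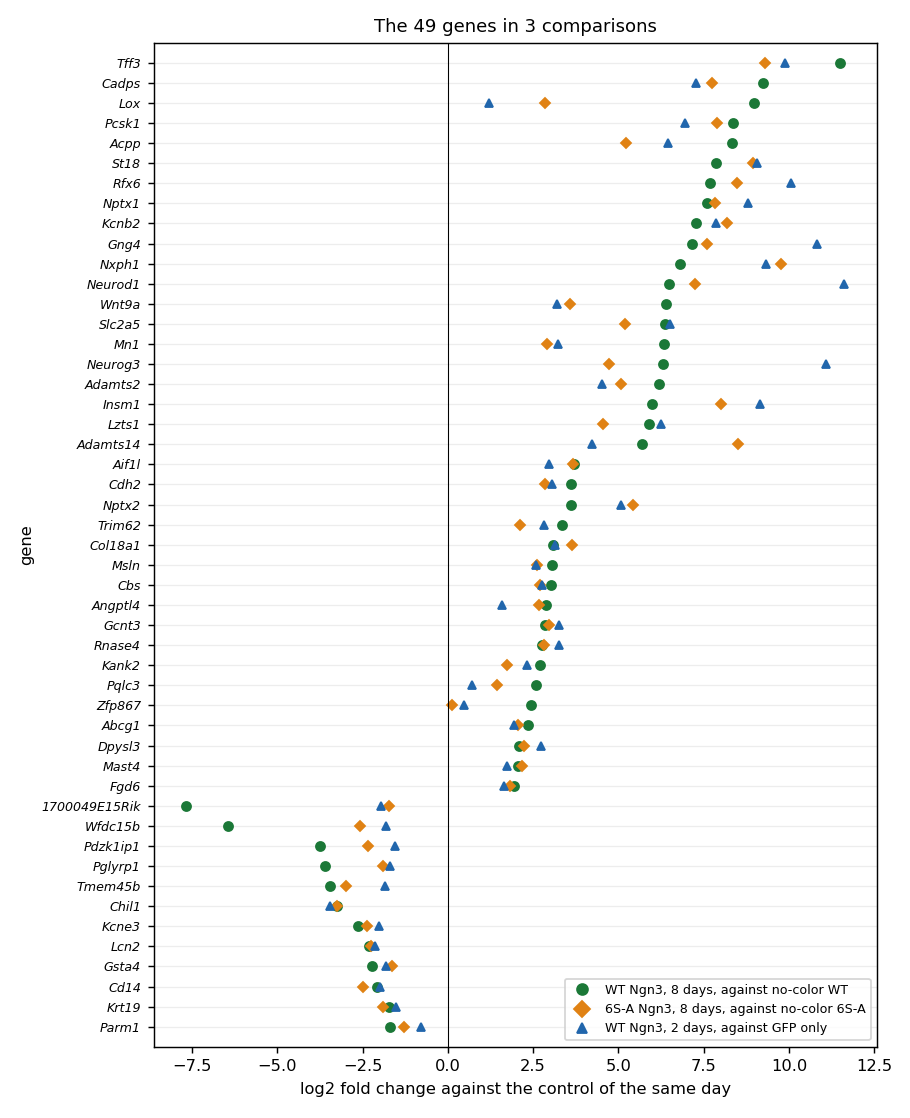
Log2 fold changes (horizontal axis) of the 49 genes (rows) with WT Ngn3 at 8 days (green circles), 6S-A Ngn3 at 8 days (orange diamonds) and WT Ngn3 at 2 days (blue triangles), each against its own control. All 3 marks lie on the same side of 0 in every row, with the 2-day mark of Neurog3, Neurod1 and Insm1 to the right of the 8-day WT mark and that of Lox far to its left.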

How the data were processed

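RNA was measured in pools of 50 sorted cells by Smart-seq2 and Nextera XT libraries read single-end. The authors aligned the reads to mm10 with GSNAP and deposited raw counts per Ensembl gene from HTSeq (0.5.3p3), 1 column per library, with 46078 mouse genes and 92 spike-ins. The processing notes of the labels name these tools, and strand setting is not given in the sources used here. Rows that name no gene stayed out of library sizes and tests: in the 23 libraries of 8 days, reads without a feature made up 6.12% to 32.1%, ambiguous reads 3.89% to 15.8% and unaligned reads 15.6% to 36.3%. Column names were matched to the labels.

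Libraries with fewer than 1000000 gene reads, under 10000 genes or over 30% spike-ins were left out, which removed 1 of 77. Technical repeats were summed per replicate. Genes read in at least 5 retained libraries of 8 days were tested by edgeR (4.0.16, R 4.3.3) with TMM factors and robust quasi-likelihood tests on all 4 groups of 8 days together, with Benjamini-Hochberg adjusted p under 0.05 as the threshold. The change at 8 against 2 days was tested in a joint fit. CPM are counts per 1000000 gene reads after TMM, computed here. Fold bounds use a floor of 3 counts over the group, and ratios of pooled CPM have exact 95% counting intervals. DESeq2 (1.42.0) and scran (1.30.0) served as alternatives, and the closing section gives the other settings. In simulated data the fit called 8 of 50 genes with a true log2 fold change of 1.5 and 2 of 50 at −1.5. It called 43 of 50 at 3 and 28 of 50 at −3. Genes that did not pass may thus still differ, more so on the lower side.

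The members and gene lists were chosen with earlier results of these data known. Genes were named if they were Neurog3, a member of a list, or, among genes past the threshold without overlap, 1 of the 15 higher or 10 lower with the largest log2 fold change or of the 10 in each direction with the highest mean CPM. Symbols were found for 45229 genes. Gene positions come from GENCODE M21 (GRCm38) and promoters from RefSeq, matched by symbol to 22 of 37 higher and 8 of 12 lower genes.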

Additional observations from a re-analysis of the deposited data

Results flagged for a closer look

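One library of WT Ngn3 replicate 2 was left out for its depth of 849278 gene reads, and it held 8 endocrine genes above every no-color library and above the limit that a count of 0 allows (3 counts, 3.53 CPM in this library). In CPM of gene reads it had Neurog3 at 27.1, Insm1 at 12.95, Rfx6 at 8.24 and Isl1 at 11.8. Chga was at 52.99 and Chgb at 14.1 CPM. The hormones Sst and Ghrl were at 436 and 332 CPM, against 8.90 and 1.32 in the retained library of the same replicate. Pyy (1.18 CPM), Ddc (1.18 CPM), Pcsk1 (2.35 CPM) and Tph1 (0 CPM) were below that limit. Reads without a feature made up 32.1% of this library, the highest share of the 23 libraries of 8 days. Its ambiguous reads were 6.18%, within the 3.89% to 6.28% of the libraries of replicate 1, of which those of WT Ngn3 also held high Sst, Ghrl and Isl1. The part of these shares in its values was not tested.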

How the results depend on the processing

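All 49 genes kept their direction under every setting, but their number moved. It was 49 (37 higher and 12 lower), 45 with DESeq2 size factors, 55 with scran size factors and 44 with all libraries kept. It was 420 by the DESeq2 Wald test (248 and 172), 21 under filterByExpr (17 and 4) and 743 with no filter (293 and 450, 39.4% higher against 75.5%). It was 133 with only the groups compared (88 and 45), 23 with the first technical repeat alone (21 and 2) and 180 against the mean of both no-color groups (146 and 34). Of the 49 genes, 21 were shared with filterByExpr and 21 with the first repeat, and all 49 with DESeq2 and with no filter. With a replicate left out it ranged from 8 (without no-color replicate 1) to 78 (without no-color replicate 2), with 6 to 58 higher and 1 to 20 lower. It was 16 without WT replicate 1, 15 without WT replicate 2, 37 without WT replicate 3 and 14 without no-color replicate 3. Some genes named as not passing gained a call: of 14 checked, 10 passed by DESeq2 (among them Chga, Chgb, Nkx2-2, Pax6 and Scg3), 12 with no filter and 7 against both no-color groups. Passage 2 alone, a setting chosen after seeing the data, gave 24 (21 and 3), 14 of them among the 49. The cause of these moves was not tested.

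A replicate block raised the count to 244 (173 and 71), and to 583 (277 and 306, 47.5% higher) in the fit of the groups compared alone. Of the same 14 genes 4 passed with the block (Cldn7, Nkx2-2, Pax6 and Scg3) and 9 in the smaller fit, where Chga had an adjusted p of 3.91e-32. The number marks no stated shared animal or day, but replicate 3 was of passage 5 in each group of 8 days. Deviations of 18 same-numbered pairs correlated at 0.069 to 0.478, with 0.069, 0.083 and 0.298 for WT Ngn3 and no-color cells, against a median of −0.117 over 36 other pairs. Each of the 12 replicates correlated best with its own number, a hint from the data only. The block gave 2 genes for the difference between 8 and 2 days, against 0 without it. DESeq2 gave 79, and leaving out a replicate gave 0 to 49.

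Neurog3 had a log2 fold change of 6.21 under filterByExpr (adjusted p = 0.0519) and 6.29 in passage 2 (adjusted p = 0.0674), and 5.27 to 6.86 with a replicate left out. Isl1 reversed to −5.15 without WT replicate 1, the lowest of its values with a replicate left out, which reached 6.61 without no-color replicate 1. With no WT read left, the size of −5.15 depends on the prior count. The spike-in share of reads at 8 days differed by −0.0275 percentage points, and by −0.0091 with the first repeat alone. Without WT replicate 1 the median over all genes moved to −0.135. Pooled ratios and bounds with a replicate left out, given beside their genes, were added after seeing the data.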
